A study of Mus musculus with 4 samples.

Results

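The 32 genes described here make cholesterol and fatty acids or control their making. They were chosen by name and role, with earlier results of these data known, and all 32 stand in the deposited count table of 24062 genes; 30 of them passed the filter on low counts that left 11271 genes for testing. They were read in 4 RNA-seq libraries of gBT-I cells, CD8+ T cells whose transgenic receptor sees the herpes simplex virus protein gB. In all 4, splenocytes of specific pathogen free (SPF) gBT-I mice were activated in culture with the gB peptide and LPS, received an interleukin (written IL-1 in the labels) on days 2 and 3, and were put into the bloodstream of C57BL/6 recipients on day 4. The groups differ in the recipient: 2 libraries come from SPF recipients and 2 from germ-free (GF) recipients, which have no microbiota, with gBT-I cells sorted from the spleen 7 days after transfer. Donor cells were thus SPF-raised and activated outside the animal in both groups. The labels give no age and do not say how many recipients made up a library or whether replicates are separate animals, so the spread that each p-value rests on is that between libraries and may be technical.

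Cholesterol is built from acetyl-CoA through mevalonate, isoprenoid pyrophosphates, squalene and lanosterol. Fatty acids are built from the same acetyl-CoA, which ATP citrate lyase makes from citrate, by acetyl-CoA carboxylase and fatty acid synthase, and are then elongated and desaturated. The transcription factor SREBP2 drives the sterol genes: SCAP escorts it from the endoplasmic reticulum when sterols are low, and INSIG proteins hold the complex back when they are high. SREBP1 acts more on the fatty acid genes. Activated T cells are known to switch on both routes to make membrane for division.

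Promoter sequence was looked at because many of these genes are textbook SREBP targets, and SREBPs bind together with the factor NF-Y, whose box reads CCAAT. Promoter windows of 300 bases (250 before and 50 after a transcript start, RefSeq, GRCm38.p6) were found for 26 of the 32 members. Fdps, Fdft1, Sqle, Stard4, Npc1 and Fads1 had no window and were not searched. On either strand, CCAAT stood in the windows of 21 of these 26 (80.8%), against 41.1% of all 27025 genes with a window and 43.1% of the 8523 tested genes with one. It was present for 12 of 13 sterol synthesis genes (92.3%) and 5 of 8 fatty acid genes (62.5%). The sterol regulatory letters TCACCCCAC stood in 1 of the 26 members, Hmgcs1, against 0.614% of all genes. The looser TCACNCCAC added no other member, against 1.44% of all genes. The E-box CACGTG stood in 5 of 26 (19.2%), against 8.09% of all genes and 12% of the tested ones. These are letter matches in 1 window per start, without a test, and they do not show binding. Other spellings of the sterol element were not searched, so a window without a match is not shown to lack one.

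Hmgcs1 alone of the members searched held the sterol letters, and Srebf2 had the largest difference between recipients. Fasn is the main fatty acid builder, and Elovl5 had lower values in GF cells. The 250 bases before the RefSeq start are printed for these 4 members, in this order. Each is read 5′ to 3′ on the gene's strand, with the letters of the sterol motif, the NF-Y box (written ATTGG where it lies on the other strand) and the E-box in capitals. In GRCm38.p6 they lie at chr13:119690101-119690350 (plus), chr15:82147019-82147268 (plus), chr11:120824548-120824797 (minus) and chr9:77917115-77917364 (plus).
Hmgcs1: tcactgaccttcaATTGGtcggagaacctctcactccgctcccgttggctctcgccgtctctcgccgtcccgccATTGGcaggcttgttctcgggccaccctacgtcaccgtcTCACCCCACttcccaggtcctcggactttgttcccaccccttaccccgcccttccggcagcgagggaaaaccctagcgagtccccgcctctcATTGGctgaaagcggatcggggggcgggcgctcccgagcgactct
Srebf2: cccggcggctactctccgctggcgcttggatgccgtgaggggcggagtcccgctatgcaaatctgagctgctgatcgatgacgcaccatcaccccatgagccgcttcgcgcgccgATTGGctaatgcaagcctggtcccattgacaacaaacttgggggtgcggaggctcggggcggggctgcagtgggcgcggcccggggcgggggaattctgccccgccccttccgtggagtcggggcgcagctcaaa
Fasn: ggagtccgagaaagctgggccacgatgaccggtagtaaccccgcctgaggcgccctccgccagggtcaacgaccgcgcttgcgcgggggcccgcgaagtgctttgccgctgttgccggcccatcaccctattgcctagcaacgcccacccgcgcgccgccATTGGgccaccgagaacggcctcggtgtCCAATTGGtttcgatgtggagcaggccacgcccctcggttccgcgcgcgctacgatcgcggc
Elovl5: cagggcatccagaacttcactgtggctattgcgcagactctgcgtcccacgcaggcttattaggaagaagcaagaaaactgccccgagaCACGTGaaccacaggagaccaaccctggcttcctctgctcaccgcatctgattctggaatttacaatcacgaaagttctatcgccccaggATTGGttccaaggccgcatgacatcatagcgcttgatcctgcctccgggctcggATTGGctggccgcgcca
Within these stretches Hmgcs1 had 3 CCAAT boxes beside its sterol letters, Srebf2 1 box, Fasn 3 boxes and Elovl5 2 boxes and an E-box. The Srebf2 stretch also holds TCACCCCAT, left in lower case, which differs from the sterol letters searched only at its last base. A pair of the Fasn boxes overlap as a palindrome, so they occupy 1 place.

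Total counts ran from 11544960 to 14431533 per library. Replicates of a group differed by more than sampling noise (chi-square per gene of 89.2 in SPF and 43.9 in GF), so each library was counted once. T cell genes were high in every library, with Cd8a between 790.3 and 991.4 CPM (a gene's reads scaled to library size, with edgeR's TMM scaling). Of the 10 CD8 T cell markers, 2 had a higher mean in GF, Cd8a among them, and 8 a lower one. In 8 of the 10, both libraries numbered 2 lay below both numbered 1 (29.6% of all genes). All 6 globin genes of the erythroid list were at 0. B cell markers summed to 122 and 28.8 CPM in SPF replicates 1 and 2 and to 144 and 31.7 CPM in GF, and thus went with the replicate number (11 of 13 tested markers had a higher mean in GF). The most abundant was Cd79b, at 23.2 to 45.2 CPM. NK markers (Klrb1c the most abundant) summed to 92.9 and 61.5 CPM in SPF and 48.5 and 45.1 CPM in GF, with 4 of 4 tested markers lower in GF. These 4 were Klrb1c, Klre1, Tyrobp and Fcer1g. The NK marker Ncr1 had only 3 and 0 counts in SPF and 2 and 1 in GF, and Klra8 and Klra4 had 0 in all libraries. The sum therefore does not show that NK cells were present or fewer in GF. CD4 T cell markers, led by Zbtb7b, summed to 100.02 and 108 against 66.4 and 89.2 CPM, while Cd4 itself had 0 to 6 counts. Macrophage markers (Cd68 the most abundant) summed to 7.63 to 10.8 CPM, but the sum hid opposite courses by replicate number. Of the 2 tested, Cd68 was higher in the libraries numbered 2 (3.49 and 6.43 CPM in SPF, 4.10 and 10.8 CPM in GF). Lyz2 was lower there, with 48 and 8 counts in SPF and 65 and 0 in GF. The untested Csf1r also fell, with 6 and 3 counts against 7 and 0. Erythroid markers (Alas2) summed to 0.82 to 2.53 CPM and neutrophil markers (S100a8) to at most 0.87 CPM. The dendritic cell list summed to 401 to 1019 CPM, nearly all from Itgax, which activated CD8 T cells also express. Mitotic genes, led by Top2a, summed to 71.1 and 91.9 CPM in SPF and 217 and 155 CPM in GF, and 18 of 18 tested ones had a higher mean in GF. The part of other cells and of dividing cells in the values below was not tested. In bulk RNA, fewer cells with a transcript and less transcript per cell cannot be told apart.

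No member passed the test of GF against SPF. By edgeR's quasi-likelihood test adjusted by Benjamini-Hochberg over all tested genes, 0 of 30 tested members and 0% of all 11271 genes passed, and the adjusted p of the members ran from 0.86 to 0.997. Unadjusted, 0 of 30 members had p under 0.05, against 2.17% of all genes higher and 1.05% lower in GF. DESeq2 and the edgeR exact test each called 0 members too (0.071% of all genes were called higher and 0.00887% lower by either), as did limma-voom. Of the 30, 20 had a higher mean in GF (49.6% of all tested genes did) and 10 a lower one, and the median log2 fold change was 0.12, against -0.004 over all tested genes. In 10 members both GF libraries lay above both SPF libraries (16.8% of all genes), in 2 both lay below (16.4% of all genes), and in 18 the groups overlapped. In 15 members GF was higher within both replicate numbers (37.3% of all genes). With 2 libraries in each group, the smallest p that an exact permutation test could reach is 0.33.

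The calls depended on SPF replicate 2 and on how the replicate number was treated. Without SPF replicate 2, edgeR called 5 members higher in GF and 0 lower, where 6.77% of all genes were called higher and 4.7% lower; that fit assumes that the lone SPF library varies like the GF ones. Without SPF replicate 1 it called 0 members (0.129% of all genes higher and 0.0173% lower), and without either GF library 0 members and 0% of genes. With the replicate number added as a covariate, edgeR called 4 members higher, Srebf2, Npc1, Fasn and Acaca, and 0 lower (6.97% of all genes higher and 3.73% lower). With a trend on transcript length removed as well it called 1 member, Srebf2 (1.87% of all genes higher and 0.706% lower). The labels do not tie same-numbered libraries together.

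**Figure D1:**
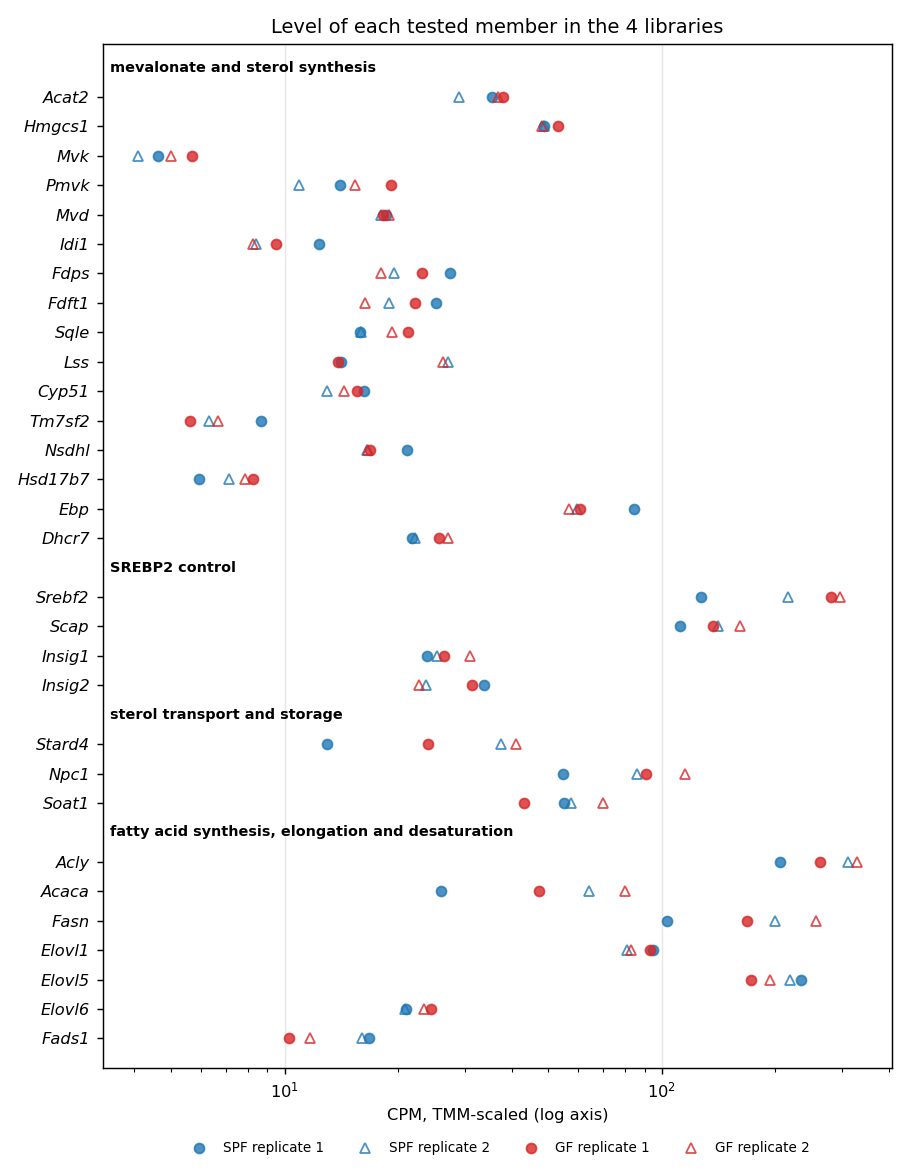
Level of the 30 tested members in each of the 4 libraries, in TMM-scaled CPM on a log axis, grouped by role; colour marks the recipient and symbol the replicate number. Srebf2, Npc1 and Pmvk have both GF points to the right of both SPF points, Fads1 and Elovl5 have them to the left, and Lss separates by replicate number.

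Among the genes of SREBP2 control, Srebf2, which encodes SREBP2 itself, had the largest difference and the smallest p of all members. It measured 127.0 and 216 CPM in SPF replicates 1 and 2 and 281 and 296 CPM in GF replicates 1 and 2. Both GF libraries lay above both SPF libraries, and the SPF libraries differed from each other more than the GF ones did. The log2 fold change was 0.75 (SE 0.31, unadjusted p = 0.056, adjusted p = 0.86 by edgeR's quasi-likelihood test). Within replicate number 1 the difference was 1.14 and within number 2 it was 0.45. Without SPF replicate 2, Srebf2 passed the edgeR test (log2 fold change 1.18, adjusted p = 0.010), and without SPF replicate 1 the log2 fold change was 0.42. Its annotated span is chromosome 15, 82147181 to 82205379, plus strand (GRCm38, GENCODE M21). This span begins before the RefSeq start used for the printed promoter, so the last bases of that stretch lie inside it.

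The escort and retention genes had smaller differences. Scap, the SREBP escort, measured 111 and 141 CPM in SPF and 137 and 161 CPM in GF, and the groups overlapped. Its log2 fold change was 0.24 (SE 0.23), 0.09 without SPF replicate 1, 0.12 without GF replicate 2 and 0.41 without SPF replicate 2. Insig1, the retention protein that is itself an SREBP target, had 23.8 and 25.3 CPM in SPF and 26.5 and 31.0 CPM in GF. Both GF libraries lay above, but by less than the standard error of the fit (0.23, SE 0.23), and without GF replicate 2 the log2 fold change was 0.11. Insig2, the retention protein that is not induced in the same way by SREBP, had 33.8 and 23.7 CPM in SPF against 31.4 and 22.7 CPM in GF. It followed the replicate number, with a log2 fold change of -0.09 (SE 0.30) that was 0.19 without SPF replicate 1 and 0.12 without GF replicate 2.

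The mevalonate and sterol enzymes lay on both sides of 0. All 16 were tested and 0 passed, 9 had a higher and 7 a lower mean in GF, and the median log2 fold change was 0.03, in a range from -0.29 to 0.47. In 6 of them both GF libraries lay above both SPF libraries (16.8% of all genes) and in 0 below. The 6 were Acat2, Mvk, Pmvk, Sqle, Hsd17b7 and Dhcr7, which stand at the entry, in the mevalonate phosphorylation steps, at squalene oxidation and late in the route.

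Pmvk, the phosphomevalonate kinase, had the largest difference of the 16. It measured 14.1 and 11.0 CPM in SPF and 19.2 and 15.4 CPM in GF, so the lower GF library lay just above the higher SPF library. The log2 fold change was 0.47 (SE 0.28, unadjusted p = 0.16), and it was 0.44 within replicate number 1 and 0.49 within number 2. It was 0.29 without SPF replicate 2, 0.30 without GF replicate 1 and 0.66 without SPF replicate 1. Mvk, the kinase one step before it, had 4.63 and 4.10 CPM in SPF against 5.67 and 5.01 CPM in GF (log2 fold change 0.29, SE 0.33). Both kinases thus lay higher in GF within each number, by amounts that the fit does not tell from spread.

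Sqle, the squalene epoxidase that catalyses a rate-limiting oxidation, had 15.8 and 15.9 CPM in SPF and 21.2 and 19.3 CPM in GF. The SPF libraries were nearly equal and both GF libraries stood above them, with a log2 fold change of 0.35 (SE 0.24, unadjusted p = 0.19). Dhcr7, which catalyses the last reduction to cholesterol, had the same layout, at 21.8 and 22.1 CPM against 25.7 and 27.1 CPM (0.27, SE 0.22). Hsd17b7, a keto-reductase of sterol demethylation, had 5.94 and 7.14 CPM against 8.27 and 7.87 CPM (0.30, SE 0.30), or 0.18 without SPF replicate 1. Acat2, the cytosolic thiolase that starts the route, had 35.5 and 29.0 CPM against 37.9 and 36.8 CPM (0.21, SE 0.22), a log2 fold change that was 0.07 without SPF replicate 2 and 0.36 without SPF replicate 1. Its close relative Acat3 held 7 to 14 counts per library, and reads the genes share may be split between them.

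Ebp, the sterol isomerase, was the most abundant sterol enzyme per length and had the lowest fold change of the arm. It measured 84.6 and 59.6 CPM in SPF and 60.7 and 56.9 CPM in GF, and the groups overlapped: SPF replicate 2 lay between the GF libraries, and SPF replicate 1 was above them. The log2 fold change was -0.29 (SE 0.25, unadjusted p = 0.28), -0.48 within number 1 and -0.07 within number 2, -0.02 without SPF replicate 1 and -0.53 without SPF replicate 2. Fdps and Fdft1, which make farnesyl pyrophosphate and squalene, had the same order of libraries. Fdps measured 27.4 and 19.5 CPM in SPF and 23.2 and 18.0 CPM in GF, and Fdft1 25.2 and 18.9 CPM against 22.2 and 16.3 CPM. In each, both libraries numbered 1 were above both numbered 2.

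Lss, the lanosterol synthase that closes the sterol ring, went the other way by number and not by recipient. It had 14.2 and 27.1 CPM in SPF and 13.9 and 26.3 CPM in GF, so same-numbered libraries of different recipients nearly matched while replicates differed by close to a doubling. Its log2 fold change between recipients was -0.04 (SE 0.46). Hmgcs1, which makes HMG-CoA, was level at 48.7, 48.7, 53.2 and 48.2 CPM in SPF replicates 1 and 2 and GF replicates 1 and 2. Mvd, the decarboxylase, was level too, at 18.0 to 19.0 CPM. The other 4 (Idi1, Cyp51, Tm7sf2 and Nsdhl) overlapped between groups, with log2 fold changes from -0.28 to 0.04.

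Of the genes that move or store sterols, Npc1, which exports cholesterol from lysosomes, had 54.8 and 85.8 CPM in SPF and 90.9 and 115 CPM in GF. Both GF libraries lay above both SPF libraries, with a log2 fold change of 0.55 (SE 0.29, unadjusted p = 0.12), 0.73 within number 1 and 0.42 within number 2. Without SPF replicate 2 it passed the edgeR test (0.91, adjusted p = 0.047), while without SPF replicate 1 the log2 fold change was 0.27 and without GF replicate 2 it was 0.37. Stard4, a cytosolic sterol carrier, had 12.9 and 37.4 CPM in SPF and 24.0 and 41.2 CPM in GF. It was highest in the libraries numbered 2, and its log2 fold change of 0.37 (SE 0.56) was -0.20 without SPF replicate 1, -0.07 without GF replicate 2 and 1.33 (adjusted p = 0.0084 by the edgeR test) without SPF replicate 2. Soat1, which esterifies cholesterol for storage, had 55.1 and 57.4 CPM in SPF, between the 43.0 and 69.8 CPM of the GF libraries. Its log2 fold change was 0.004 (SE 0.29) and turned to -0.33 with the length trend removed (described below).

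The fatty acid arm is described by step, a division made after its values were seen, and its elongases did not all go the same way. In 1 tested gene, Elovl6, both GF libraries lay above both SPF libraries (16.8% of all genes). In 2, Fads1 and Elovl5, both lay below (16.4% of all genes). Of its 9 genes 7 were tested, 0 passed, 5 had a higher and 2 a lower mean in GF, and the median log2 fold change was 0.19 in a range from -0.58 to 0.50. The builders Acly, Acaca and Fasn had higher means in GF but overlapped, and each had both libraries numbered 2 above both numbered 1. Acly, the citrate lyase, had 206 and 312 CPM in SPF and 263 and 328 CPM in GF (log2 fold change 0.19, SE 0.29). Fasn, the fatty acid synthase, had 103 and 200.002 CPM against 169 and 256 CPM (0.49, SE 0.40), and Acaca, the cytosolic acetyl-CoA carboxylase, had 25.9 and 64.1 CPM against 47.2 and 80.0 CPM (0.50, SE 0.50). GF replicate 1 lay below SPF replicate 2 in all 3. Without SPF replicate 2, Fasn (1.04, adjusted p = 0.025) and Acaca (1.29, adjusted p = 0.0037) passed the edgeR test, while without SPF replicate 1 their log2 fold changes were 0.09 and -0.01 and without GF replicate 2 they were 0.15 and 0.06.

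The desaturase and one elongase lay the other way. Fads1, the delta-5 desaturase of polyunsaturated fatty acids, had 16.8 and 16.04 CPM in SPF and 10.2 and 11.7 CPM in GF. Both GF libraries were lower, replicates were close, and the log2 fold change was -0.58 (SE 0.26, unadjusted p = 0.069, adjusted p = 0.86 by edgeR), -0.70 within number 1 and -0.45 within number 2. Leaving out any 1 library gave -0.68 to -0.49. Elovl5, the elongase of polyunsaturated chains and the most abundant member per length, had 233 and 218 CPM in SPF and 172 and 194 CPM in GF (-0.30, SE 0.20, unadjusted p = 0.19), again with both GF libraries lower. Elovl6, which elongates saturated chains, had 21.0 and 20.9 CPM in SPF and 24.4 and 23.4 CPM in GF (0.19, SE 0.22). Its GF libraries were both higher. Elovl1, the elongase of very long saturated chains, was level between recipients at 94.8 and 80.8 CPM against 93.2 and 82.8 CPM (0.003, SE 0.21).

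The 2 members that were not tested were near the counting limit. Acacb, the mitochondrial carboxylase isoform, had 3 and 6 counts in SPF and 10 and 12 in GF. Fads2, the delta-6 desaturase, had 0 counts in 3 libraries and 2 in GF replicate 1; a count of 0 allows up to 3 counts, or 0.262, 0.212 and 0.215 CPM in SPF replicates 1 and 2 and GF replicate 2, for counting error only.

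**Figure D2:**
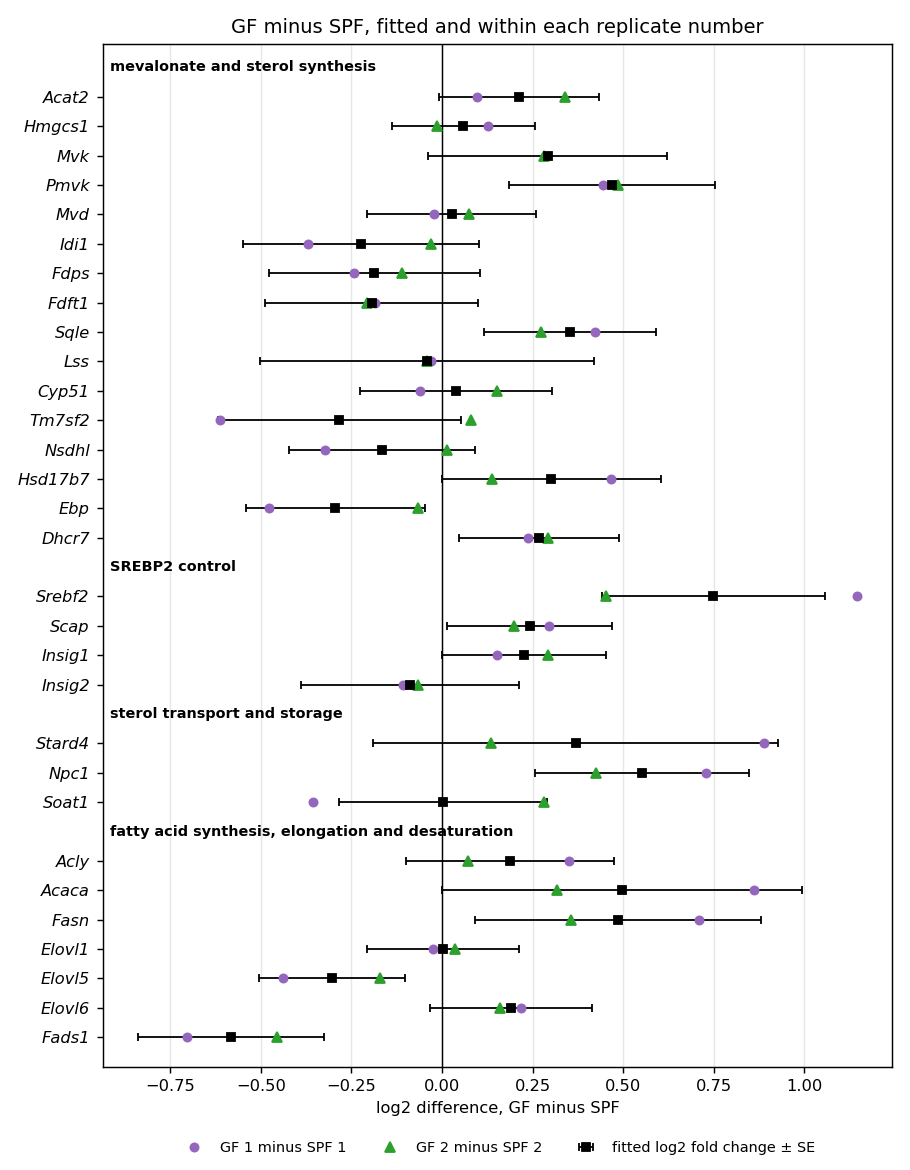
Log2 difference of GF minus SPF for each tested member: squares with bars are the fitted fold change ± SE over 2 libraries a group, circles and triangles the difference within replicate numbers 1 and 2. Srebf2 reaches 1.14 within number 1 and 0.45 within number 2, while Fads1 is below 0 in both.

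The arms were compared by their medians, with no test, since genes are not replicates. The sterol arm had a median log2 fold change of 0.03 over 16 genes and the fatty acid arm 0.19 over 7, a difference of -0.16. This difference was not stable over pairs of libraries. It was -0.24 for GF minus SPF within number 1, 0.01 within number 2, 0.46 for GF replicate 1 minus SPF replicate 2 and -0.15 for GF replicate 2 minus SPF replicate 1. Each library's sterol arm minus its fatty acid arm, both as medians centred per gene, was 0.11 and -0.31 in SPF and 0.15 and -0.05 in GF, so the recipients overlapped. The mean of this score was -0.10 in SPF and 0.05 in GF, so GF minus SPF was 0.15 by this measure, the opposite sign to the difference of fitted medians. Replicates differed too: for number 2 minus 1, the sterol arm had a median of -0.31 in SPF and -0.10 in GF and the fatty acid arm -0.004 and 0.18. Without SPF replicate 1 the difference between arms was 0.04, the opposite sign, and without SPF replicate 2 it was -0.32.

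**Figure D3:**
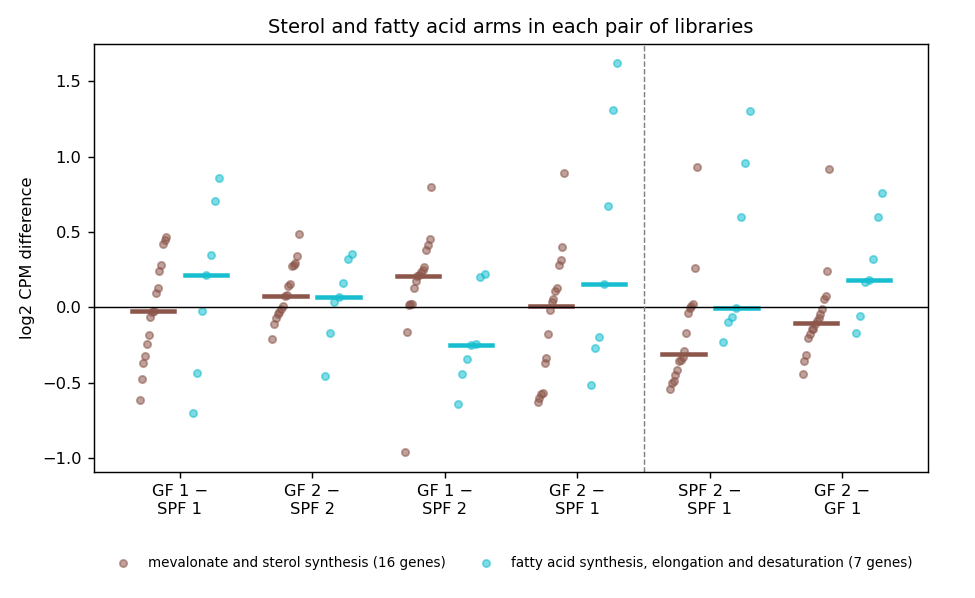
Log2 CPM difference of each tested gene of the sterol arm (16 genes) and the fatty acid arm (7 genes) for the 4 pairs of a GF with an SPF library (left of the dashed line) and the 2 pairs of replicates (right); bars are medians. The fatty acid median is above the sterol median within number 1 (0.22 against -0.03) and below it for GF 1 minus SPF 2 (-0.25 against 0.21).

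Transcript length differed between the arms and went with the library differences. The exonic length (all annotated exons of a gene merged) had a median of 2625 nt in the sterol arm, 4610 nt in the fatty acid arm and 3216 nt over tested genes. Across 11194 genes, which are not independent, Spearman's rho of length with the difference of replicate 2 minus 1 was 0.57 in SPF and 0.52 in GF, and 0.41 with the fold change of GF over SPF. Of the 30 members, 7 had both libraries numbered 2 above both numbered 1 (28.4% of all genes): Lss, Scap, Stard4, Soat1, Acly, Acaca and Fasn, all longer than the median. In 9, both were below (29.6% of all genes): 6 of these were shorter than the median, and Hmgcs1, Fdft1 and Cyp51 were longer.

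With a smooth trend on length removed from each library, the fatty acid median was 0.09 and the sterol median 0.05, a difference of -0.05. Fasn then had a log2 fold change of 0.21, Acaca 0.26, Elovl6 -0.0080 and Soat1 -0.33. Srebf2 had 0.64, Npc1 0.42, Fads1 -0.61 and Pmvk 0.65 in that fit, and 0 members passed the edgeR test there. Fasn and Acaca thus came nearer to 0, as did Srebf2 and Npc1 by smaller amounts, while Fads1 and Pmvk lay farther from 0.

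**Figure D4:**
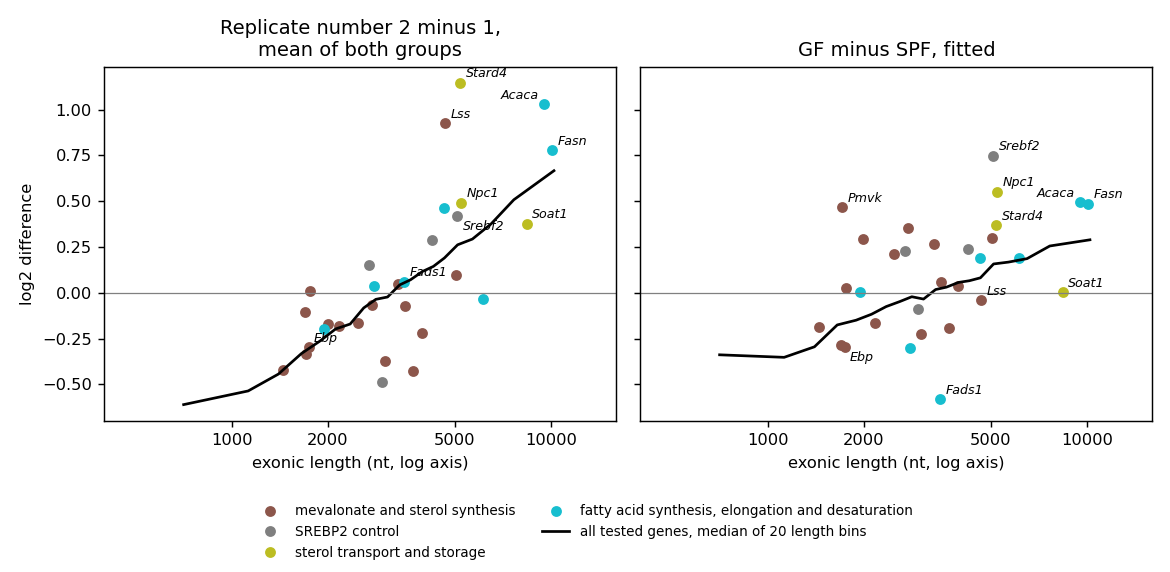
Exonic length (nt, log axis) of each tested member against the log2 difference of replicate number 2 minus 1, averaged over both groups (left), and against the fitted log2 fold change of GF over SPF (right); the line joins medians of 20 length bins of all tested genes with a known length. Stard4, Lss, Acaca and Fasn stand highest on the left, and Srebf2 stands highest and Fads1 lowest on the right.

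Other genes of the same routes were read from lists that do not overlap the members. The table held 21 further sterol pathway genes, of which 18 were tested and 0 passed, with 11 higher and 7 lower in mean and a median of 0.04. Both GF libraries lay above both SPF libraries in 5 (16.8% of all genes) and below in 1 (16.4% of all genes).

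Soat2, the other esterifying enzyme, had 35.9 CPM in both SPF libraries and 52.3 and 46.4 CPM in GF (0.46, SE 0.20). Erlin1, a protein of endoplasmic reticulum membrane domains, had 17.8 and 18.6 CPM against 13.7 and 14.1 CPM (-0.39, SE 0.24). In both the groups were apart, and neither passed.

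The table held 27 further fatty acid genes, of which 18 were tested and 0 passed, with 10 higher and 8 lower in mean and a median of 0.06. Both GF libraries lay above both SPF libraries in 6 (16.8% of all genes) and below in 4 (16.4% of all genes). The stearoyl-CoA desaturases, which make monounsaturated chains, had the largest differences, with log2 fold changes of 1.70 (SE 0.46) for Scd1 and 0.78 (SE 0.30) for Scd2, and Srebf1, the SREBP1 gene, had 0.50 (SE 0.20). Scd1 differed by 1.65 within number 1 and also within number 2, and Scd2 was 0.45 without SPF replicate 2 and 1.18 without SPF replicate 1. These desaturases thus lay higher in GF where Fads1 lay lower. Hsd17b12, the reductase of the elongation cycle in which the ELOVL enzymes work, had 65.6 and 51.7 CPM in SPF and 47.0 and 43.0 CPM in GF (-0.38, SE 0.22), or -0.20 without SPF replicate 1.

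Levels were compared between members as CPM per kilobase of exon. Elovl5 was highest, with means of 81.1 in SPF and 65.7 in GF, then Acly at 56.2 and 64.1, which overlapped it in GF and, over the 4 libraries, also overlapped Srebf2, Elovl1 and Ebp. Srebf2 (33.8 and 56.8), Elovl1 (45.2 and 45.3), Ebp (41.4 and 33.7) and Scap (29.8 and 35.3) followed. Over the 4 libraries the range of Srebf2 overlapped those of Elovl1, Ebp and Scap, and that of Ebp overlapped all of them, while every library of Elovl1 was above every library of Scap. The builder Fasn stood at 15.1 and 21.1. The sterol enzymes other than Ebp lay between 1.30 (Hsd17b7) and 16.1 (Fdps) in SPF. Acaca, at 4.74 and 6.69, was far below Acly, and its isoform Acacb was at 0.039 and 0.088.

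Some reads cannot be given to 1 gene, because the library kit does not mark strand. In the annotation, exons of Fdft1 share 774 nt (20.9% of its exonic length) with Ctsb on the other strand, and those of Lss share 381 nt (8.2%) with the antisense gene 4930483K19Rik. Cyp51 shares 166 nt with Akap9, Npc1 192 nt with Rmc1 and Elovl1 53 nt with the mitotic gene Cdc20, each at most 4.2% of the member's exonic length. Fdps shares 77.4% of its exonic length with Gm43738 on its own strand, a gene that is not a row of the table, so its count may depend on the annotation used.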

How the data were processed

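Processing covered 4 mouse RNA-seq libraries, 2 per recipient group. The authors deposited raw read counts by gene symbol, with 1 column per library and no normalization. CASAVA, TopHat, Picard, featureCounts, Subread and edgeR, with build mm10, are named per the submitters' processing notes. Versions and annotation: not given in the sources used here. No row lacks a gene name.

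The test of GF against SPF was edgeR's (version 4.0.16, R 4.3.3; TMM scaling, filterByExpr, quasi-likelihood, no covariates, two-sided, Benjamini-Hochberg over 11271 genes, threshold 0.05). Each SE is the size of the log2 fold change over the root of its F statistic. Differences between single libraries use log2 CPM with a prior count of 2. Depth of 11544960 to 14431533 counts makes 3 counts worth 0.20 to 0.26 CPM. Lengths came from GENCODE M21 (GRCm38, as mm10), by symbol or older symbol for 99.3% of tested genes. The length correction enters a loess (span 0.3) of log2 CPM on log length per library as an offset. DESeq2 1.42.0, limma 3.58.1, other scalings and filters, and each library left out were alternatives. Figures used matplotlib 3.10.9.

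Members and lists were chosen with earlier results of these data known. Named with full values were, per role, the 5 members with the smallest p, those whose groups do not overlap and the one highest per kilobase, the 4 genes of each further pathway list with the smallest p (some of which are not reported here), and the most abundant marker of each other cell type. Members outside this rule were added for their role after their values were seen.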

Additional observations from a re-analysis of the deposited data

How the results depend on the processing

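The count of 0 genes past the threshold held under the other scalings (DESeq2-type size factors, upper quartile, library totals), without a filter, with a mean of 10 CPM or more, by limma-voom and with the length trend removed. It was 9 by DESeq2 and 9 by the edgeR exact test, and the members' count of 0 held in all of these. With libraries left out, all genes gave 0 to 1327 calls and the members 0 to 5 (Srebf2, Npc1, Stard4, Acaca and Fasn, all without SPF replicate 2). The fatty acid median ran from 0.038 to 0.35, the sterol median from 0.02 to 0.08 and their difference from -0.32 to 0.04.

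Nothing in the labels ties same-numbered libraries to 1 animal, day or batch, and the test is unpaired. Across genes, replicate 2 minus 1 in SPF correlated with that in GF (Pearson 0.71). With the replicate number as a block, edgeR called 1206 genes and 4 members higher (Srebf2 at adjusted p = 0.0057, Npc1 at 0.025, Fasn at 0.031 and Acaca at 0.033), where 6.97% of all genes were called higher. With the block and the length trend removed it called 288 genes and 1 member (Srebf2, adjusted p = 0.044; 1.87% of all genes were called higher). Outside the members, genes named in the text that the block also called were Scd1 (adjusted p = 0.0017), Scd2 (0.0037) and Srebf1 (0.040), and with the length trend removed as well Scd1 (0.023).

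Of the genes named with fold changes, Soat1 reversed at -0.011 (upper quartile), -0.0087 (library totals), -0.0088 (no filter), -0.039 (limma-voom), -0.033 (replicate block), -0.33 (length trend removed) and -0.31 (both). Elovl6 reversed at -0.0080 with the length trend removed and -0.0043 with the block as well. With libraries left out, log2 fold changes ran from -0.34 to 0.19 for Insig2, -0.20 to 1.33 for Stard4, -0.39 to 0.31 for Soat1 and -0.01 to 1.29 for Acaca. The cause was not tested. With 2 libraries a group and this spread between replicates, missing the threshold does not show that the recipients are alike.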
